A study of Mus musculus with 6 samples.

Results

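Mitochondrial ribosomal protein genes, recognised by the symbols Mrpl (large subunit) and Mrps (small subunit) followed by a number, were measured in the tail epidermis of young and aged mice. The RefSeq accessions of the array's probes named 78 such genes among 21368 genes, 49 of the large and 29 of the small subunit, with 100 probes. Testing required a probe well above background on 3 or more of the 6 arrays, which 77 of the 78 genes met, among 14134 genes tested in all. The one left out, Mrpl21, had 1 probe and was well above background on 0 arrays.

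Mitochondria keep a ribosome of their own, which translates the few messages of mitochondrial DNA, core subunits of the respiratory chain and of ATP synthase. Its RNA comes from mitochondrial DNA, while its proteins are encoded in the nucleus, made in the cytosol and imported. Many of these proteins have a bacterial counterpart and share its number, and others are found in mitochondrial ribosomes alone. Keratinocytes of the basal epidermis divide and carry mitochondria, which are lost with the other organelles during cornification.

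Total RNA came from tail epidermis detached from the dermis with EDTA, of wild-type C57BL/6 mice. The 3 young samples were from mice of 8 weeks. Among the 3 aged samples, replicate 1 was aged 22 months and replicates 2 and 3 were aged 25 months. Sex is not stated, nor whether samples are from different animals, and the p-values therefore reflect sample-to-sample spread that may be technical in part. Replicate 1 of each group differed from replicates 2 and 3 in Y-linked transcripts, as given below. How much of its distance from them in other genes is technical was not tested. RNA was amplified, and the Cy3-labelled cDNA of every sample was hybridised to a separate 1-colour Agilent array.

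Signals are log2 intensities relative to the 75th percentile of the array, which lay between 202 and 268 units. Between 50.02% and 54.38% of probes were well above background, lowest on aged replicate 3. The 4 basal and the 4 suprabasal keratinocyte markers were all detected, whereas 3 of 4 muscle markers, Ckm, Des and Myh4, were well above background on 0 arrays. Replicate 1 of each group carried transcripts of the Y chromosome, with a Ddx3y signal of 2.34 in young and 2.06 in aged replicate 1. The Ddx3y probe was not well above background on the other 4 arrays. Xist lay between 0.90 and 1.51 on those arrays, at -2.70 on young replicate 1 and at -6.90 on aged replicate 1. It was well above background on every array but aged replicate 1. With 3 arrays a group, precision is limited.

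The first question was how these genes differ between aged and young epidermis. Signals of 76 of the 77 tested genes had a higher mean in aged epidermis, or 98.7%, against 64.7% of all tested genes. The differences were small: the median was 0.21 log2 units, the quartiles were 0.13 and 0.29, and the median of all tested genes was 0.10. Relative to that common shift, 62 of the 77 genes lay above the median gene, where 50% of all tested genes do. Large and small subunit had nearly the same median, 0.21 over 48 genes and 0.22 over 29 genes.

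No gene of either subunit passed the threshold of a limma adjusted p of 0.05, with the smallest at 0.144, and 11 of 14134 tested genes (0.0778%) did. Among all tested genes that number was 0 with the replicate block described next, and 837 (5.92%) without aged replicate 1, again with 0 of the 77. At an unadjusted p under 0.05, 11 of the 77 genes were higher (14.3%), close to the background of 11.7%, and 0 were lower, beside 6.2% of all tested genes. Blocking on replicate number left 6 genes higher at that level (background 11.7%) and 0 past the adjusted threshold. Without young replicate 1 the number was 25 (background 12.5%), without young replicate 2 it was 2 (5.53%) and without young replicate 3 it was 2 (5.93%). Without aged replicate 1 it was 6 (14.8%), without aged replicate 2 it was 3 (8.16%) and without aged replicate 3 it was 2 (9.24%). The 3 aged signals lay above all 3 young signals for 21 of the 77 genes (27.3%), beside 20.1% of all tested genes, and below them for 0, beside 7.24%.

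**Figure D1:**
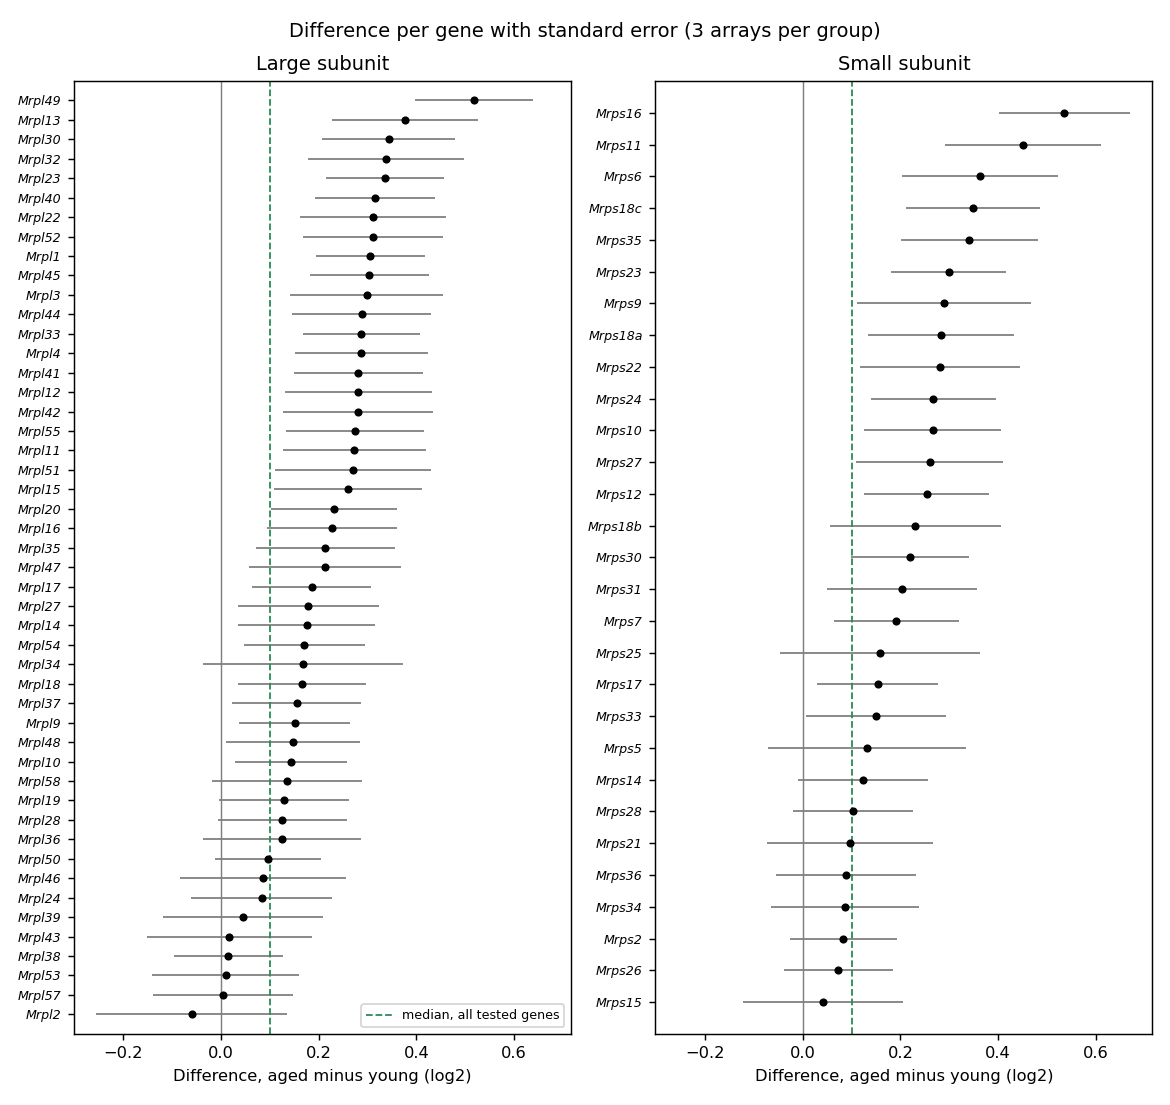
Difference between aged and young epidermis for each tested gene on the log2 scale, with bars of 1 standard error (3 arrays per group), for the large (left) and small (right) subunit; the dashed line is the median of all tested genes at 0.10. Points lie between -0.059 (Mrpl2) and 0.54 (Mrps16), and 1 of them is below 0.

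In the large subunit 47 of 48 genes had a higher aged mean. Mrpl49, a protein found in mitochondrial ribosomes and not in bacterial ones, had signals of 1.04, 1.22 and 1.31 in young replicates 1 to 3 and 1.69, 1.66 and 1.77 in aged replicates 1 to 3. All 3 aged arrays were above the highest young one. The difference was 0.52 ± 0.12 log2 units or 1.43-fold (SE, n = 3 per group; adjusted p = 0.144 by limma). A second probe of Mrpl49 differed by only 0.12, with aged signals of 0.19, 0.52 and 0.87 that overlapped the young ones of 0.58, 0.30 and 0.32. The 2 probes thus gave unlike sizes for this gene.

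Mrpl23, which lies near the exit of the peptide tunnel, had young signals of 4.70, 4.45 and 4.47 and aged signals of 4.84, 4.85 and 4.94, a difference of 0.34 ± 0.12 (adjusted p = 0.232). The RefSeq table also lists a pseudogene of Mrpl23, and whether its transcript binds the probe was not tested. Mrpl1, a protein of the mobile L1 stalk, had young signals of -1.70, -1.67 and -1.66 and aged signals of -1.47, -1.39 and -1.26. Its groups did not overlap, and the difference was 0.31 ± 0.11 (adjusted p = 0.237). Mrpl40, a protein specific to mitochondria, had 2 probes that both lay higher in aged epidermis, by 0.32 ± 0.12 for the brighter (adjusted p = 0.252) and by 0.43 for the other.

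Mrpl13 and Mrpl30, counterparts of bacterial L13 and L30, differed by 0.38 ± 0.15 and 0.34 ± 0.14 (adjusted p = 0.258 for both), and neither had overlapping groups. Mrpl12, the stalk protein, had young signals of 3.80, 3.39 and 3.38 and aged signals of 3.76, 3.80 and 3.87, so that young replicate 1 lay within the aged range. Its difference was 0.28 ± 0.15 (adjusted p = 0.365), and that of Mrpl11, at the base of the stalk, was 0.27 ± 0.15 (adjusted p = 0.367). Mrpl3 and Mrpl44, the latter with a domain like that of ribonuclease III, differed by 0.30 ± 0.16 and 0.29 ± 0.14 (adjusted p = 0.358 and 0.337).

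The only gene of either subunit with a lower aged mean was Mrpl2, the counterpart of the bacterial protein next to the peptidyl transferase centre. Its young signals were 4.56, 4.04 and 4.44 and its aged signals 4.56, 4.16 and 4.13. The groups overlapped, and the difference of -0.059 ± 0.20 (adjusted p = 0.897) was within its error. Its sign turned without young replicate 1 (0.048), aged replicate 2 (0.0021) or aged replicate 3 (0.018). Mrpl41 was one of 22 genes with a second tested probe: the brighter differed by 0.28 ± 0.13 (adjusted p = 0.314) and the dimmer by -0.33, at -1.51, -1.49 and -1.41 in young and -1.84, -1.70 and -1.86 in aged epidermis. For 18 of the 22 genes the second probe also had a higher aged mean, and the probes lay a median of 0.091 apart, with Mrpl41 the one gene over 0.5.

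In the small subunit all 29 genes had a higher aged mean, from 0.042 to 0.54. Mrps16, a counterpart of bacterial S16, had the largest difference of either subunit. Its signals were 4.45, 4.20 and 4.17 in young and 4.71, 4.77 and 4.94 in aged replicates 1 to 3, so the groups were apart. The difference was 0.54 ± 0.13 log2 units or 1.45-fold (SE, n = 3 per group; adjusted p = 0.159 by limma). With arrays weighted by their quality, Mrps16 and Mrpl49 were the 2 genes past the threshold, at 0.57 and 0.45 (adjusted p = 0.0352 and 0.0483), in a fit where 8.19% of all tested genes passed. That fit had 26 of the 77 genes higher at an unadjusted p under 0.05, beside 20.2% of all tested genes.

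Mrps11, a protein of the platform of the small subunit, had aged signals of 0.027, -0.0034 and -0.011 that lay close together, against young signals of -0.14, -0.56 and -0.64. The difference was 0.45 ± 0.16 (adjusted p = 0.228). Mrps23 and Mrps35, both specific to mitochondria, differed by 0.30 ± 0.12 and 0.34 ± 0.14 (adjusted p = 0.258 and 0.272), without overlap of the groups. Mrps6, counterpart of bacterial S6, differed by 0.36 ± 0.16 (adjusted p = 0.295), with an aged replicate 1 of 2.38 that lay just above the young signals of 2.31, 2.34 and 2.22. Aged replicates 2 and 3 of this gene were higher, at 2.68 and 2.90.

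Mammals have 3 proteins related to bacterial S18. Mrps18c differed by 0.35 ± 0.14 (adjusted p = 0.257), Mrps18a by 0.28 ± 0.15 (adjusted p = 0.359) and Mrps18b by 0.23 ± 0.17 (adjusted p = 0.506). Groups were apart for Mrps18c, with young signals of 4.09, 3.81 and 3.73 and aged signals of 4.29, 4.15 and 4.24. They overlapped for Mrps18b, at 4.80, 4.39 and 4.34 against 4.63, 4.65 and 4.95, where young replicate 1 was the second highest array. In structures of the ribosome the product of Mrps18a, like that of Mrps30, sits in the large subunit, and Mrps36 is a subunit of a dehydrogenase complex. Grouped in that way the medians were 0.22 over 50 genes of the large and 0.22 over 26 of the small subunit.

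Mrps12, a protein of the decoding centre, differed by 0.25 ± 0.13 (adjusted p = 0.342) and Mrps22, specific to mitochondria, by 0.28 ± 0.16 (adjusted p = 0.395). Mrps5, whose level has been linked to lifespan among mouse strains, had young signals of -0.19, -0.82 and -0.59 and aged signals of -0.64, -0.33 and -0.23. These overlapped, and the difference was 0.13 ± 0.20 (adjusted p = 0.758), or -0.011 without young replicate 2. Mrps15, with the smallest value of the small subunit, differed by 0.042 ± 0.16 (adjusted p = 0.913) and turned to -0.097 without aged replicate 3 and -0.031 without young replicate 3.

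Genes that carry the number of a bacterial protein were set beside the others. In the large subunit the median was 0.23 for 27 genes numbered up to 36 and 0.17 for 21 genes with higher numbers. In the small subunit it was 0.24 for 16 genes numbered up to 21 (0.16 without aged replicate 3) and 0.20 for 13 with higher numbers (0.13 without young replicate 2). Each of these medians was above the 0.10 of all tested genes, and the differences between them were not tested.

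**Figure D2:**
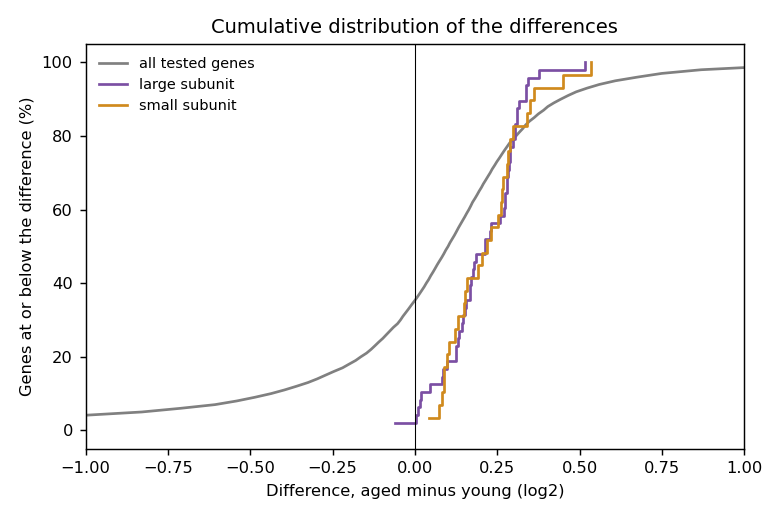
Cumulative share of genes (vertical axis, percent) at or below a given difference between aged and young epidermis (horizontal axis, log2) for the large subunit, the small subunit and all tested genes; the axis is limited to -1 to 1. The 2 subunits run together from near 0 to about 0.54, while all tested genes spread to both sides of 0.

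The standard deviation of the differences was 0.12 log2 units over the 77 genes and 0.57 over all tested genes. It was smaller still for subunits of oxidative phosphorylation (0.096), cytosolic ribosomal proteins (0.088) and mitochondrial import (0.085). The 77 genes included 2 genes above 0.5 and 15 within 0.1 of 0. The genes also varied together from array to array. Over the 2926 pairs of these genes, deviations from the group means on 6 arrays correlated with a median r of 0.68, where the median over pairs of all tested genes was 0.052. Such pairs share the same arrays, scaling and RNA, and the value is a description.

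Most of the common movement within the young group lay in 1 array. On young replicate 1 the median deviation from the young mean was 0.18 log2 units, and on young replicates 2 and 3 it was -0.092 and -0.075. Young replicate 1 was the highest young array for 71 of the 77 genes (92.2%), against 47.1% of all tested genes. Aged replicates 1, 2 and 3 had median deviations of 0.18, 0.15 and 0.30. Young replicate 1 was thus as high as aged replicates 1 and 2, and 33 of 77 genes were higher on aged replicate 2 than on young replicate 1.

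**Figure D3:**
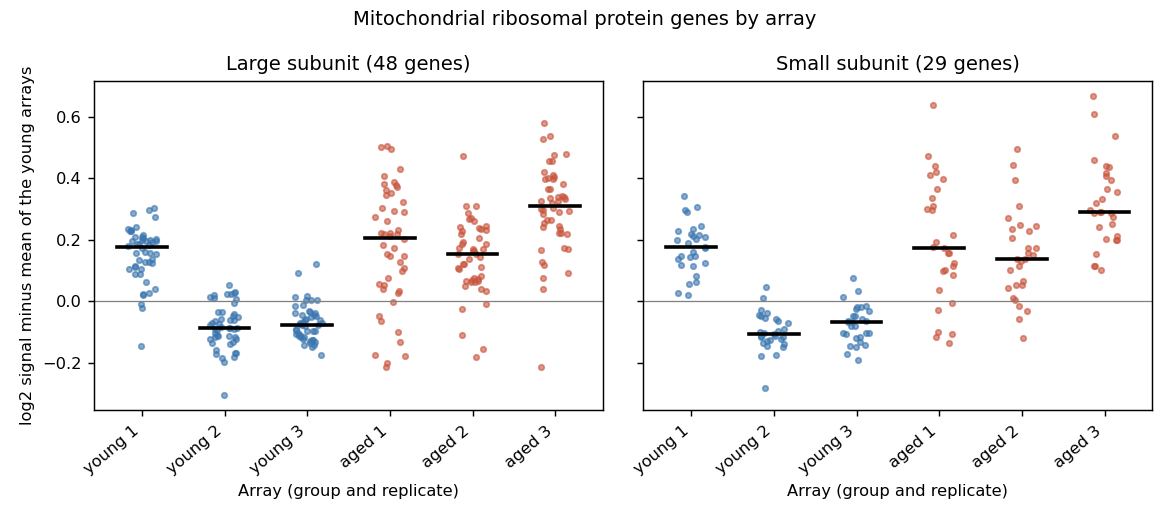
Each point is 1 gene on 1 array, as log2 signal minus the mean of the young arrays (vertical axis), for the large (left) and small (right) subunit; black bars are medians. The median of young replicate 1 lies near those of aged replicates 1 and 2, young replicates 2 and 3 lie below 0, and aged replicate 3 is highest.

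Pairs of the same replicate number differed in size. The median of the 77 genes was 0.035 log2 units higher in aged than in young replicate 1, the pair with Y-linked transcripts, and 44 genes were higher. For replicates 2 and 3 it was 0.24 and 0.37, with 73 and 76 genes higher. The same medians over all tested genes were 0.016, 0.093 and 0.21, with 51.8%, 61.6% and 69.5% of genes higher. Without replicate 1 of both groups the median was 0.30, against 0.15 over all tested genes, and 0 of the 77 genes passed the adjusted threshold, beside 1.93% of all tested genes. At an unadjusted p under 0.05, 24 were then higher, beside 17%. Sex, age in months and other features of these arrays cannot be told apart with 1 such pair.

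Arrays also stood in 2 rows of the slide, young replicates 1 and 2 in the first row and the other 4 arrays in the second. With the row as a block the comparison rests on young replicate 3, the 1 young array in a row with aged ones, and the median of the 77 genes was 0.28. Aged replicate 3, the array with the fewest detected probes, was the highest of the 6 arrays for 53 of the 77 genes, and for 37.5% of all tested genes. Without it 66 of the 77 genes had a higher aged mean, beside 58.5% of all tested genes, with a median of 0.17 against 0.060. The part of array quality in the result was not tested.

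Some sets of markers of other cells of the skin moved between the groups as well, and others had overlapping ranges. The summed signal of 6 hair shaft and root sheath markers, all detected, was 698 to 1075 in young and 16 to 570.9 in aged epidermis, relative to the 75th percentile. Among them Krt31 and Krt35 are also keratins of the tail scale, and the sum does not show which markers or cells carried its fall. For 6 melanocyte markers it was 16.9 to 21.3 and 5.52 to 15.1, and for 4 fibroblast markers 1.104 to 1.81 and 0.266 to 0.424, with Pdgfra on 0 arrays. The 3 T cell markers on the array were higher, from 2.67 to 4.10 and from 4.45 to 11.54. The ranges of the 4 basal keratinocyte markers, 946.4 to 1018 in young and 1009 to 1246 in aged epidermis, overlapped. So did those of Langerhans cell markers (10.4 to 14.8 and 3.54 to 13.2) and of sebocyte markers (24.8 to 47.6 and 18.8 to 82.6). Ranges of the endothelial, Merkel cell and suprabasal keratinocyte markers overlapped too. The part of these cells in the differences was not tested, and in whole epidermis fewer cells of a type and less RNA per cell cannot be told apart.

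Further genes of mitochondrial translation were counted in the same way. Of 6 proteins of this ribosome that carry other symbols or insert its products into the membrane, 5 were higher, with a median of 0.21, or 0.13 without aged replicate 3. Oxa1l, the insertase at the tunnel exit, differed by 0.42 ± 0.14, Dap3, a GTP-binding protein of the small subunit, by 0.36 ± 0.14 and Aurkaip1 by 0.23 ± 0.16 (limma adjusted p = 0.220, 0.260 and 0.464). Of 26 factors that assemble the ribosome or handle its RNA, 23 were higher, with a median of 0.26, and 0 passed the threshold. The pseudouridine synthase gene Rpusd4 differed by 0.51 ± 0.11, the endoribonuclease gene Ybey by 0.36 ± 0.12 and the methyltransferase gene Mrm2 by 0.35 ± 0.13, with adjusted p of 0.139, 0.220 and 0.241.

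The 12 tested translation factors had a median of 0.15, or 0.093 without aged replicate 3, with 10 higher. The release factor Mtrf1 differed by 0.47 ± 0.12, the initiation factor Mtif3 by 0.28 ± 0.12 and the elongation factor Gfm1 by 0.22 ± 0.11 (adjusted p = 0.162, 0.295 and 0.350). Of 16 mitochondrial aminoacyl-tRNA synthetases 13 were higher, with a median of 0.15, and Pars2, for proline, differed by 0.59 ± 0.16 (adjusted p = 0.172). The 18 genes of mitochondrial DNA expression, of which 13 were higher, had a median of 0.12, near the 0.10 of all tested genes. Top1mt, the mitochondrial topoisomerase, differed by 0.67 ± 0.11 and Tfam, which packs mitochondrial DNA and acts in its transcription, by 0.36 ± 0.12 (adjusted p = 0.104 and 0.221). None of these lists held a gene past the threshold.

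Other mitochondrial lists shifted by like amounts. All 26 tested genes of import and the outer membrane were higher, with a median of 0.18, or 0.29 without young replicate 1, among them Vdac1 (0.33 ± 0.11, adjusted p = 0.212). Of 74 nuclear genes for subunits of oxidative phosphorylation 72 were higher, with a median of 0.19, led by Ndufa5 (0.38 ± 0.12, adjusted p = 0.2001). Cytosolic ribosomal proteins, the counterpart outside mitochondria, had 79 of 81 genes higher and a median of 0.19. The aged signals lay above all young ones for 53 of 81 genes (65.4%), beside 27.3% of the mitochondrial ribosomal genes and 20.1% of all tested genes. Young replicate 1, at 0.0099, did not stand apart in this list as it did at 0.18 for the mitochondrial one. That rise was not particular to the mitochondrial ribosomal genes. It was 0.16 for ribosomal proteins with other symbols, 0.16 for import and 0.15 for oxidative phosphorylation. Smaller values were found for DNA expression (0.094), assembly (0.079), regulators (0.063), synthetases (0.037) and translation factors (0.030).

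**Figure D4:**
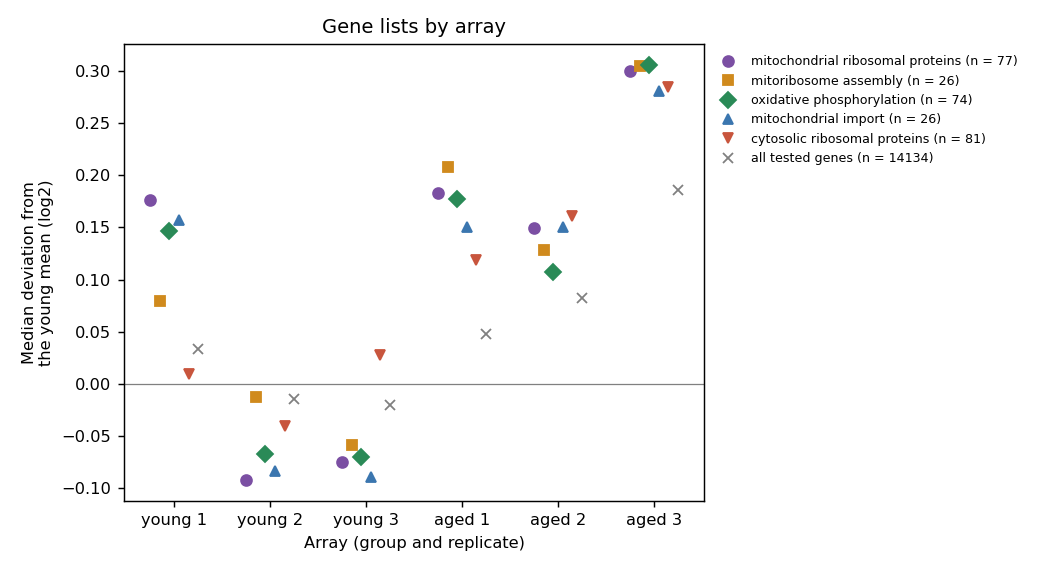
Median deviation from the young mean (vertical axis, log2) of 5 gene lists and of all tested genes on each of the 6 arrays (horizontal axis). Mitochondrial ribosomal proteins lie at 0.18 on young replicate 1 and cytosolic ones at 0.0099, while on aged replicate 3 they are at 0.30 and 0.28, where all tested genes are at 0.19. On young replicate 1 mitochondrial import lies at 0.16, oxidative phosphorylation at 0.15 and assembly at 0.079.

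Of 11 regulators of mitochondrial gene expression, 10 were higher and 1, Ppargc1a, was lower, with a median of 0.14 that moved to 0.27 without aged replicate 1 and to 0.059 without aged replicate 3. Ppargc1a, a coactivator that drives mitochondrial biogenesis, was detected above background in all 3 young samples and in 0 aged ones, with signals of -4.25, -3.90 and -4.33 against -4.70, -5.67 and -6.22. It met the filter of 3 or more arrays only through the young group, so its contrast between the groups depends in part on that filter. With aged signals raised, where lower, to the lowest signal well above background on their array, Ppargc1a was 1.23-fold lower. This is not a strict bound, because aged replicate 1, at -4.70, lay above that lowest signal of -4.72 and was still not detected. On the measured signals the limma adjusted p was 0.185. Yy1, a transcription factor of many mitochondrial genes, differed by 0.28 ± 0.12 (adjusted p = 0.298). Of 11 genes of the integrated stress response, which translation defects in mitochondria can switch on, 7 were higher, with a median of 0.15 that moved to 0.25 without aged replicate 1, 0.034 without aged replicate 2, 0.088 without aged replicate 3 and 0.096 without young replicate 3. In this list 1 gene was lower past the threshold, Chac1 (-1.78 ± 0.14, adjusted p = 0.0300). Chac1 lost that call with the replicate block (adjusted p = 0.144), with the slide row as a block (0.384), with no filter on dim probes (0.126) and without each array other than aged replicate 1 (0.112 to 0.194), at differences of -1.85 to -1.75. Chac1 kept the call with array weights, normexp background correction, quantile normalization and without aged replicate 1 (limma adjusted p = 0.00705, 0.00838, 0.0234 and 0.00476). In each fit without 1 array other than aged replicate 1, no tested gene at all passed the threshold. Mthfd2 and Ddit3, of the same list, differed by -0.74 ± 0.20 and 0.40 ± 0.13 (adjusted p = 0.172 and 0.214).

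Promoters of the mitochondrial ribosomal protein genes were searched for 4 short motifs, as a description. RefSeq windows of 250 bases before to 50 after a gene's start (GRCm38.p6) were on hand for 68 of the 77 genes. On either strand the ETS core CCGGAAG, bound by factors such as GABPA, was held by 25 of the 68 genes (36.8%), against 18.1% of 11235 tested genes with a window and 9.93% of all 27025 genes with one. The YY1 core AAGATGGC was held by 12 (17.6%), against 4.74% of tested and 3.19% of all genes. The NRF1 core GCGCATGC was held by 8 (11.8%), against 5.42% and 3.05%, and the GC box GGGCGG of Sp1 by 34 (50%), against 64.3% and 38.2%. The letters of these 4 motifs do not contain each other, matches may overlap in a window, and a match is a description and not a binding site. Median differences of genes with and without a match were 0.26 and 0.19 for YY1, 0.23 and 0.21 for ETS, 0.21 and 0.22 for NRF1 and 0.21 and 0.22 for the GC box, which were not tested.

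The 250 bases before the most upstream listed start are shown, 5′ to 3′ on the strand of the gene, for the 3 genes with the smallest p, for 2 of the 4 genes with 3 kinds of match and for Mrpl2. Capitals mark matches to the 4 motifs on either strand.
Mrpl49 (chr19:6057756-6058005, minus strand): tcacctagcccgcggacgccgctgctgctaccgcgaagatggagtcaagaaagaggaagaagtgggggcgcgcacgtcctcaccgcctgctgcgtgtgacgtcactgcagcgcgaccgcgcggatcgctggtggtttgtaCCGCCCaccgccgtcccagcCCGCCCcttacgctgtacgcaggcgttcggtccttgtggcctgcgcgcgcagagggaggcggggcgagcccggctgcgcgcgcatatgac
Mrps16 (chr14:20393635-20393884, minus strand): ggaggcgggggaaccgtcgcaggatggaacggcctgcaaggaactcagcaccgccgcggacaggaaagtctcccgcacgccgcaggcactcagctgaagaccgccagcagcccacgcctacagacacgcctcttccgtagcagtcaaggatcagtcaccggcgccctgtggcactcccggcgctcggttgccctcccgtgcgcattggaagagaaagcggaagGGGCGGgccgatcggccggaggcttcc
Mrps11 (chr7:78782881-78783130, plus strand): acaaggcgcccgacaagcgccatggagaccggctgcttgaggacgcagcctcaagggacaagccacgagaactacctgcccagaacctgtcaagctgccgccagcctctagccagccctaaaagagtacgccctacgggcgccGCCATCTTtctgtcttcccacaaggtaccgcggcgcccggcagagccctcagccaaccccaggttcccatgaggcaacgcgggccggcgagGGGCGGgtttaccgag
Mrps18b (chr17:35916441-35916690, minus strand): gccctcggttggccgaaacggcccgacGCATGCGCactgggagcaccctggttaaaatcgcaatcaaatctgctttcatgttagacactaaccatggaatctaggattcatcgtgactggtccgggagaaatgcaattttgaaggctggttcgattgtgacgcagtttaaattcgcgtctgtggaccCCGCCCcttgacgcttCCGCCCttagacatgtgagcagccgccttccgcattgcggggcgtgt
Mrps12 (chr7:28741822-28742071, minus strand): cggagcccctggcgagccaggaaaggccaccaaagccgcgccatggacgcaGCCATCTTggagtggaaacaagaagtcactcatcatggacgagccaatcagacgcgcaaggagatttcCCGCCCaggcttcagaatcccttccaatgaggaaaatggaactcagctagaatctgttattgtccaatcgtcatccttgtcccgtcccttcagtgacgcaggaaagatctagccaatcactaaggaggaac
Mrpl2 (chr17:46645971-46646220, plus strand): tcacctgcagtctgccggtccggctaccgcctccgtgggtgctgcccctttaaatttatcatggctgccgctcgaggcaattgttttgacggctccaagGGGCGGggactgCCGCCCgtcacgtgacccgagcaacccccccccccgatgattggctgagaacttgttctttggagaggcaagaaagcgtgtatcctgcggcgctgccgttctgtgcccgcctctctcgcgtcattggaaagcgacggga

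In these stretches Mrpl49 and Mrpl2 each hold 2 GC box matches, and Mrps16 holds 1. Mrps11 and Mrps12 each hold a YY1 match on the opposite strand beside 1 GC box. Mrps18b holds an NRF1 match that begins at base -223 from its start and GC box matches at bases -63 and -47. Further matches lay after the start: a YY1 match began at base 17 of the Mrpl49 transcript, an ETS match at base 2 of that of Mrps12, and in Mrps18b an NRF1 match at base 29 and an ETS match at base 44. The second listed window of Mrps16 holds 2 ETS matches, at bases -74 and 25 of its own start. Mrpl2, with the 1 lower mean, and Mrpl49, with the largest difference of the large subunit, thus share the GC box and no other of the 4 motifs before the start. Over whole windows the GC box was held by 64.3% of tested genes and 50% of the 68, so sharing it sets neither gene apart.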

How the data were processed

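The 6 arrays lay on 1 slide scanned once, and per the file headers Feature Extraction (version 11.5.1.1) read them for the authors, with probe annotation on build mm9. The deposited processed signal is a linear spot intensity, background-subtracted and detrended within an array, per the file headers; flags for detection and spot outliers were used. The authors' deposited table of 33870 probes holds log2 values centred per probe; it correlated with the scanner values, treated likewise, with r of 1.0000 on each array over 33868 probes.

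Outlier spots (116 to 170 per array) were left out, spots of a probe averaged, and log2 taken minus the array's 75th percentile over probes. RefSeq accessions (GRCm38.p6 table) named 28331 of 55681 probes. The brightest probe stood for a gene. Groups were compared with limma 3.58.1 in R 4.3.3 (lmFit, eBayes, two-sided, no covariate), with Benjamini-Hochberg adjustment over 14134 genes and the unnamed probes. The fit was tested on simulated data. The fold given for Ppargc1a sets the young mean against aged signals raised, where lower, to the lowest signal well above background on their array. No array value of a tested member was missing.

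Same-numbered samples deviated together (r = 0.414, 0.259 and 0.102), which is the basis of the replicate block; the labels name nothing they share.

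Genes and lists were chosen with earlier results of these data known. Genes named were those past the threshold, the 6 with the smallest p per subunit and direction, the extremes, those with disagreeing probes or not tested, a panel, and up to 3 per related list; Chac1 has been shown before.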

Additional observations from a re-analysis of the deposited data

How the results depend on the processing

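Over 18 other settings, the median of the 77 genes stayed above that of all tested genes, by 0.074 to 0.20 log2 units, and 65 or more genes had a higher aged mean (65 under quantile normalization). No setting gave a gene past the adjusted threshold except array weights, with 2; leaving out arrays gave 0 to 0. The replicate block gave 0 genes of this ribosome past the threshold. At an unadjusted p under 0.05 it gave 6 higher, beside 11.7% of all tested genes. It took the calls past the adjusted threshold among all tested genes from 11 to 0, and so ended that of Chac1. The number at that unadjusted level, 11 in the report (background 11.7%), was 26 with array weights (20.2%). Leaving out an array gave 2 to 25, with backgrounds of 5.53% to 14.8%. It was 20 with normexp, 5 with quantile normalization and 3 without the filter on dim probes. For these settings the share of all tested genes was not counted, so the numbers cannot be read against a background. Leaving out arrays gave medians of 0.17 to 0.30 for the large and 0.16 to 0.31 for the small subunit, and for the related lists 0.18 to 0.32 (assembly), 0.13 to 0.34 (ribosomal proteins with other symbols), 0.093 to 0.23 (translation factors), 0.10 to 0.20 (DNA expression), 0.12 to 0.23 (synthetases), 0.059 to 0.27 (regulators), 0.034 to 0.30 (stress response), 0.13 to 0.29 (import), 0.13 to 0.28 (oxidative phosphorylation) and 0.14 to 0.24 (cytosolic ribosomal proteins). Quantile normalization moved cytosolic ribosomal proteins to 0.10, the deviation of aged replicate 3 to 0.14 and Mrps15 to -0.038. Averaging a gene's probes moved DNA expression to 0.028 and Mrpl41 to -0.024. The slide row as a block moved the import list to 0.29. On the gene's strand alone the ETS core was held by 22.1% and the GC box by 25% of the 68 genes with a promoter window, beside 10.1% and 44.6% of tested genes. Leaving out arrays moved Mrpl2 between -0.21 and 0.048, Mrps15 between -0.097 and 0.20 and Mrps5 between -0.011 and 0.42. The files hold median and not mean spot signals, so normexp used the median. Percentile over spots, relative counts and subunits by structure were chosen after seeing the data. The cause of these changes was not tested. Signal over background limits Ppargc1a and Mrpl21.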
